A study of Mus musculus with 6 samples.

Results

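The genes described here are the semaphorins, plexins, ephrins, Eph receptors, Slits, Robos and netrins with their receptors, the families that guide growing axons and dendrites and that stay expressed in the mature retina. They were chosen by name alone, from the symbols of the count tables that begin with Sema, Epha, Ephb, Efna, Efnb, Slit or Robo and a digit, with Plxna to Plxnd or with Unc5, together with Ntn1, Ntn4 and Dcc. The letters matched 69 of 32285 genes. Of these, 64 are guidance genes: 20 semaphorins, 9 plexins, 9 EphA and 5 EphB receptors, 5 ephrin-A and 2 ephrin-B ligands, 3 Slits, 4 Robos, 2 netrins and 5 netrin receptors. The other 5 share only the letters. Plxna4os1, Plxna4os2 and Plxna4os3 are transcripts from the strand opposite Plxna4, Unc50 encodes a Golgi protein and Unc5cl an intracellular adaptor, and they are left out of the counts below.

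The series holds single-nucleus RNA-seq of retinas from rd10 mice (strain B6.CXB1-Pde6b-rd10/J), which carry a mutation in the rod phosphodiesterase gene Pde6b and lose their rods and then their cones. All 6 libraries came from such mice at postnatal day 20, so no retina without the mutation was compared. In 3 of them (labelled 1, 2 and 6) the eye had received saline into the vitreous at postnatal day 18, and in the other 3 (labelled 4, 5 and 10) it had received 20 ng of recombinant IL-27, a cytokine of the interleukin-12 family. The labels do not say whether a library holds 1 retina or several, so the p-values measure the spread between these libraries.

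Semaphorins are secreted or membrane-bound ligands that mostly repel neurites, and plexins are their signalling receptors, with neuropilins as partners for the secreted class 3 members. Eph receptors are tyrosine kinases bound by membrane-anchored ephrins, and contact can signal into both cells. Their gradients over the retina set the map of ganglion cell axons in the brain. Slits repel through Robo receptors. Netrins attract through Dcc and repel through the Unc5 receptors. In the inner retina, transmembrane semaphorins and plexin-A receptors keep neurites within their layers, while in vessels Robo4, Plxnd1 and Ephb4 are endothelial receptors.

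Each library held 8968 to 9965 barcodes and 36678332 to 48260748 UMIs (unique molecular identifiers, counts of RNA molecules), and 52215 nuclei were retained in all. Of these, 1111 set aside on reclustering and 150 that mixed with rods belonged to no class and entered neither the map nor the tests. Any 2 libraries shared 18 to 30 barcodes. Nuclei were clustered without the guidance genes and named from marker genes as 11 classes: rods, cones, bipolar cells (BC), amacrine cells (AC), horizontal cells (HC), retinal ganglion cells (RGC), microglia, astrocytes, Muller glia, pericytes and endothelial cells. The clusters named microglia were led by Csf1r and Itgam, by Ms4a7 and Gpnmb, or by the MHC class II genes H2-Aa and Cd74, so the class may take in other myeloid cells. Levels are given as CPM, the counts per 1000000 UMIs of that cell type in a library, as mean ± SD over 6 libraries, and are compared only within a gene. Free RNA in droplets can give a few UMIs of a gene to nuclei that do not express it. The rod gene Gnat1, at 493 CPM in rods, stood in the other 10 classes at 3.19% (RGC) to 18.5% (cones) of that level, the AC gene Gad1 reached 22.2% of its AC level in rods and the Muller gene Rlbp1 27.5% of its Muller level in pericytes. The last share varied widely, from 18.9 to 271 CPM over the libraries in a class of 131 nuclei. Markers differed by home class: in Muller glia the BC gene Grm6 stood at 2.72% and the HC gene Onecut1 at 0.193%. A guidance gene at or below such shares of its highest class is not read as expressed there. The shares are pooled over markers, and where the RNA of such a gene came from was not tested. Intervals on shares of nuclei cover counting error only.

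Nearly every family member was present in the rd10 retina. Of the 64 guidance genes, 63 reached 60 UMIs over the 11 classes, the exception being Plxnb3, and 48 reached 60 UMIs in the class where their mean was highest. These 48 were spread widely: 10 peaked in Muller glia, 6 each in BC and AC, 5 each in HC, microglia and endothelial cells, 4 in astrocytes, 3 each in RGC and cones and 1, Plxna2, in rods, while none peaked in pericytes. For 23 of the 48, the highest class lay above the second in every library, without overlap of the 6 values. For the other 25, the first and the second class were not apart beyond their spread. Because the classes were found in the same nuclei, the map is a description and carries no test.

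**Figure D1:**
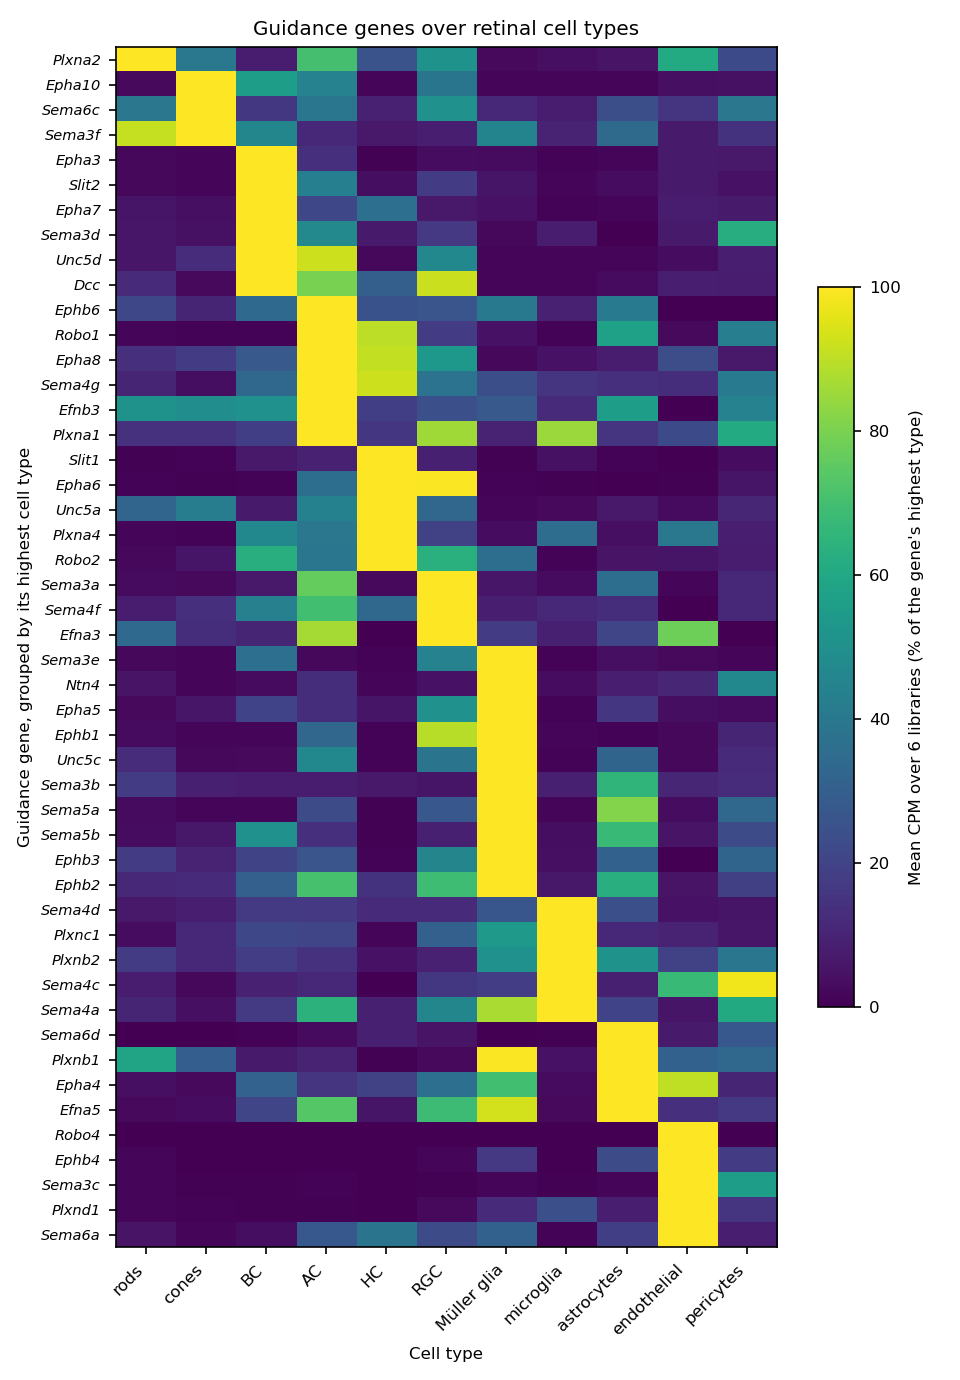
Mean CPM over 6 libraries for the 48 guidance genes with at least 60 UMIs in their highest cell type (rows) in 11 retinal cell types (columns), as a percentage of each gene's highest type. Robo4, Slit1, Epha3 and Sema6d each stood mainly in 1 class, while Sema4g, Epha4 and Plxna1 were shared by several.

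Among the ligands, the secreted class 3 semaphorins separated by cell type. Sema3e, the ligand of Plxnd1, was highest in Muller glia at 496 ± 65.5 CPM, followed by RGC at 219.9 ± 27.2 and BC at 182 ± 20.3 CPM. A Sema3e UMI was found in 73.4% (exact 95% interval 72.2 to 74.5) of Muller nuclei and in 1.47% (exact 95% interval 1.28 to 1.68) of rod nuclei. After thinning each nucleus to 1000 UMIs the shares were 34.1% and 0.96%. Sema3a, which collapses growth cones through neuropilin-1 and plexin-A receptors, was highest in RGC at 162 ± 24.9 CPM. AC followed at 124 ± 18.3 CPM, and the ranges of both over the libraries overlapped. Sema3f stood in both photoreceptor types, at 44.7 ± 6.44 CPM in cones and 40.7 ± 5.48 CPM in rods. Sema3d was a BC gene at 24.2 ± 6.41 CPM, overlapping with pericytes. Sema3c and Sema3g were vascular, with 148 ± 51.4 and 32.6 ± 19 CPM in endothelial cells, although the second value rested on 23 UMIs.

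Sema5a and Sema5b, transmembrane semaphorins that restrain neurites in the inner retina, were highest in glia. Sema5a measured 639.9 ± 84.8 CPM in Muller glia and 522 ± 91.3 CPM in astrocytes, values that overlapped between the libraries, against 174 ± 12.5 CPM in RGC. Sema5b followed the same order for the glia, with 134 ± 6.74 CPM in Muller glia and 90.8 ± 20.8 CPM in astrocytes, and BC held 68 ± 8.09 CPM. Sema6a was highest in endothelial cells at 1044 ± 143 CPM and was next in HC at 401 ± 33.8 CPM, a gap that held in every library. Sema6d was the most astrocyte-restricted member. Its values in astrocytes were 1973, 2349 and 1392 CPM in the saline libraries and 1369.8, 1748 and 1190.0 CPM in the IL-27 libraries, in order of library number, and pericytes came second at 460.0 ± 203 CPM. In Muller glia, the other macroglial class, 0.977% (exact 95% interval 0.732 to 1.28) of nuclei held a Sema6d UMI, against 88.1% (exact 95% interval 83.8 to 91.5) of astrocyte nuclei.

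The class 4 semaphorins were spread over immune, glial and neuronal classes. Sema4d, known from lymphocytes and a ligand of Plxnb1, measured 268, 331 and 256 CPM in the saline libraries and 231, 316 and 286 CPM in the IL-27 libraries within microglia. Its mean there, 282 ± 37.7 CPM, was above that in Muller glia (75.1 ± 6.67 CPM) in every library. Sema4c (33.3 ± 5.64 CPM) and Sema4a (30.8 ± 13.7 CPM) also peaked in microglia but overlapped with pericytes and with Muller glia, respectively. Sema4b was highest in astrocytes at 37.6 ± 10.7 CPM, from 43 UMIs, and overlapped with Muller glia at 31.2 ± 3.59 CPM. Sema4f was highest in RGC at 20.5 ± 2.33 CPM and Sema4g in AC at 57.4 ± 3.21 CPM, close to HC at 53.1 ± 6.42 CPM. Sema6c had its highest mean in cones at 21.7 ± 5.69 CPM and overlapped with RGC at 11 ± 2.27 CPM. The membrane-anchored Sema7a, which binds Plxnc1, had its highest mean in endothelial cells at 73.2 ± 28.3 CPM from 51 UMIs.

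The plexin receptors peaked in neurons, in glia and in immune or vascular cells. Plxna2 was the single member with its maximum in rods, at 438 ± 28.8 CPM, above AC at 309 ± 21.5 CPM in every library. Plxna4 was highest in HC at 398 ± 49 CPM, with BC second at 186 ± 13.1 CPM. Plxna1 was shared by AC (32.5 ± 2.33 CPM), RGC (27.9 ± 2.73 CPM) and microglia (27.5 ± 6.1 CPM). Plxna3 was low throughout, at 8.92 ± 0.538 CPM in AC. Plxnb2 and Plxnc1 peaked in microglia at 104 ± 15.4 and 200.4 ± 47.3 CPM, both above the next class in every library. Plxnb1, the receptor of Sema4d, overlapped between astrocytes (63.9 ± 24.7 CPM) and Muller glia (63.6 ± 5.38 CPM). Plxnd1 was endothelial at 126 ± 22 CPM, 4.09-fold above microglia at 30.8 ± 20.7 CPM.

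Slit ligands and Robo receptors followed the interneurons. Slit1 was an HC gene, with 348, 265 and 359 CPM in the saline libraries and 308, 319 and 295 CPM in the IL-27 libraries. Its mean in HC, 316 ± 34.7 CPM, was 11.1-fold the next value, 28.5 ± 2.08 CPM in AC. A Slit1 UMI was present in 91.3% (exact 95% interval 88.5 to 93.7) of HC nuclei and 12.9% (exact 95% interval 12.4 to 13.6) of AC nuclei, or in 26% and 2.49% after thinning. Slit2 was highest in BC at 2503 ± 319.6 CPM and second in AC at 1083 ± 59 CPM. Robo1 was a receptor of AC (2092 ± 144 CPM) and HC (1887 ± 202 CPM), which overlapped. Robo2 was highest in HC at 2076 ± 193 CPM and was carried by RGC (1319 ± 49.7 CPM) and BC (1309.7 ± 29.5 CPM) at levels that overlapped. Robo4, the endothelial Robo, was the sharpest of the 64 genes. Of its 114 UMIs, 99 came from the 236 endothelial nuclei summed, where it measured 155 ± 61.3 CPM, against 0.102 CPM in AC, the next class.

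Of the 2 netrin ligands, Ntn4 was a Muller glia gene at 175 ± 20.7 CPM, with pericytes second at 81.7 ± 97.4 CPM and AC at 22.8 ± 1.03 CPM. Ntn1 was scarce: 275 UMIs were counted in the 11 classes, and its highest mean, 65.4 ± 30.3 CPM in pericytes, rested on 27 of them. The receptors were abundant. Dcc was shared by BC (2170.2 ± 78.8 CPM), RGC (1992 ± 108 CPM) and AC (1733 ± 154 CPM), and was lowest in Muller glia at 26.7 ± 1.7 CPM. Unc5c showed the reverse among these, with its maximum in Muller glia at 1722 ± 216 CPM, AC second at 806 ± 35.2 CPM and 42.4 ± 17.1 CPM in BC. Unc5d stood in BC (1406 ± 72.9 CPM) and AC (1299 ± 74.7 CPM), which overlapped. Unc5a was highest in HC at 49.3 ± 12 CPM. Unc5b was highest in pericytes at 111 ± 85.8 CPM from 40 UMIs, with endothelial cells second at 35.7 ± 16 CPM.

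Eph receptors were carried by both neurons and glia. Epha3 (1019.8 ± 101 CPM) and Epha7 (888 ± 54.6 CPM) were BC genes, 7.33-fold and 2.74-fold above the next class. Epha6 in HC (1217 ± 51.5 CPM) and in RGC (1209 ± 74.7 CPM) was not apart beyond the spread. Epha10, a receptor without kinase activity, was highest among the classes in cones at 119 ± 9.89 CPM, although the starburst type of AC held 298 ± 18.5 CPM. Epha8 stood in AC (29.3 ± 2.34 CPM) and HC (26.6 ± 9.75 CPM). Epha4 was highest in astrocytes (442 ± 62.6 CPM) and endothelial cells (399.5 ± 84.5 CPM), ahead of Muller glia (309 ± 55.5 CPM). Epha5, the main partner of ephrin-A ligands in retinal mapping, was most abundant in Muller glia, at 2295, 2336 and 2309 CPM in the saline libraries and 2769, 2636 and 1585 CPM in the IL-27 libraries. One IL-27 library, number 10, was the lowest of the 6, and the groups overlapped. RGC, in which Epha5 was second, held 1175 ± 30.1 CPM.

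The EphB receptors Ephb1, Ephb2 and Ephb3 also had their highest means in Muller glia, at 248 ± 48.1, 141 ± 44.8 and 17.2 ± 3.76 CPM. Ephb1 and Ephb2 overlapped with RGC (222 ± 23.8 CPM) and AC (99.9 ± 7.99 CPM), respectively, whereas Ephb3 stood apart from RGC (7.81 ± 1.9 CPM). Ephb4, the venous receptor, was endothelial at 86.7 ± 19 CPM, and the kinase-dead Ephb6 was highest in AC at 9.53 ± 0.776 CPM. Of the ephrins, Efna5 was broad: astrocytes (646 ± 146 CPM), Muller glia (602 ± 57.7 CPM), AC (476 ± 45 CPM) and RGC (442 ± 39.7 CPM). Efnb3 peaked in AC (12.4 ± 1.73 CPM) and Efna3 in RGC (3.54 ± 1.1 CPM). Efnb1 was spread thinly, with 13.9 ± 4.01 CPM in Muller glia and 12.6 ± 0.96 CPM in AC. Efna1, with 53.1 ± 23.2 CPM in endothelial cells, rested on 37 UMIs there.

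Within bipolar cells, 17 of 49 guidance genes stood apart in 1 of 3 types. Of the 10207 BC nuclei summed, 2646 were named as none of the types and are left out here. Of the 2340 nuclei named OFF bipolar, 1047 formed a cluster with Slit2 and Epha3 among its leading genes. It passed 3 of 7 OFF bipolar markers and 3 of 6 rod bipolar markers. Its OFF name came from the OFF markers Erbb4 and Grik1 among its leading genes, so the name is less sure there. Of the 49 guidance genes with at least 60 UMIs in rod bipolar, ON cone bipolar and OFF bipolar nuclei together, 8 were highest in OFF bipolar cells in every library, 6 in ON cone bipolar cells and 3 in rod bipolar cells, while the other 32 overlapped. Slit2 measured 8749 ± 1082 CPM in OFF bipolar cells, 28.6-fold its level in ON cone bipolar cells (306 ± 54 CPM) and far above rod bipolar cells (234 ± 44.2 CPM). Plxna4 was divided even more sharply, with 449 ± 52.5 CPM in OFF bipolar, 10.5 ± 3.63 CPM in ON cone bipolar and 2.53 ± 0.556 CPM in rod bipolar cells. Sema6d was also higher in OFF than in ON cone bipolar cells (52.8 ± 15.4 against 1.84 ± 1.05 CPM). It stood at 1670 CPM in astrocytes, and some markers of other classes also reached such a share, so it is not called an OFF gene. On the ON side, Sema3d reached 92 ± 21.5 CPM in ON cone bipolar cells against 15.7 ± 6.63 CPM in OFF bipolar cells, and Epha4 227 ± 13.9 against 68.5 ± 19.7 CPM. In rod bipolar cells Sema3e (392 ± 44.6 CPM), Sema5b (106 ± 20.9 CPM) and Robo2 (1674 ± 88.1 CPM) were highest. Epha3 went the other way, with 99.8 ± 5.26 CPM in rod bipolar and 1931 ± 300.4 CPM in OFF bipolar cells.

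Among the AC types, starburst amacrine cells, the cholinergic neurons of direction-selective circuits, were highest in every library for 8 of 58 guidance genes. Other GABAergic AC were highest for 19 and glycinergic AC for 8, while 23 overlapped. Of the 12457 AC nuclei summed, 1875 were named as none of the types. Plxna2 measured 1141 ± 97.9 CPM in starburst nuclei, against 266 ± 18.5 CPM in other GABAergic and 222 ± 22.5 CPM in glycinergic AC. Epha10 was 8.26-fold higher there (298 ± 18.5 CPM) than in the other GABAergic AC (36.1 ± 2.9 CPM), and Sema7a 6.51-fold (66.2 ± 13 against 10.2 ± 0.892 CPM). Dcc (3238 ± 396 CPM) and Robo2 (1531 ± 87.2 CPM) were also highest in starburst nuclei. Several members common in other AC were scarce in them, among them Robo1, at 6.76 to 134 CPM over the libraries against 3371 ± 197 CPM in other GABAergic AC, and Unc5d, at 68 ± 34.8 against 1588 ± 92.1 CPM. Glycinergic AC led for Epha7 (439 ± 25.1 CPM), Ephb1 (125 ± 21.5 CPM) and Robo3 (18.5 ± 3.99 CPM), the last with 0.491 ± 0.747 CPM in GABAergic AC.

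The second comparison asked which guidance genes differed between IL-27 and saline retinas at postnatal day 20. None passed the test in any class. Of the 64 genes, 63 passed the filter on low counts in at least 1 class, which gave 349 tests over the 11 classes. By the quasi-likelihood test of edgeR, adjusted after Benjamini and Hochberg, 0 of 349 were below an adjusted p of 0.05, and the smallest adjusted p was 0.123. Over all genes and classes, 0.00559% of tests were called (6 of 107387): 0.00747% in rods, 0.00586% in AC, 0.0284% in Muller glia and 0% in the other 8 classes. DESeq2 called 1 member, Slit2 in Muller glia. At an unadjusted p below 0.05 stood 22 of the 349 (6.3%), against 4.13% of all tests. In 13 of the 22 the gene stood in that class at or below 27.5% of its highest class, the highest share that markers of other classes reached. That share was Rlbp1 in pericytes, at 84.1 ± 94.5 CPM in a class of 131 nuclei. Markers with another home class could be far lower, such as microglial Csf1r at 0.926% in rods. Whether free RNA gave the 13 values was not tested. The median log2 fold change of the members lay between -0.02 (BC) and 0.09 (HC) in every class but pericytes, where 4 members were tested, beside -0.004 to 0.007 for all genes of those classes. In pericytes it was 0.72, beside 0.02 for all genes.

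**Figure D2:**
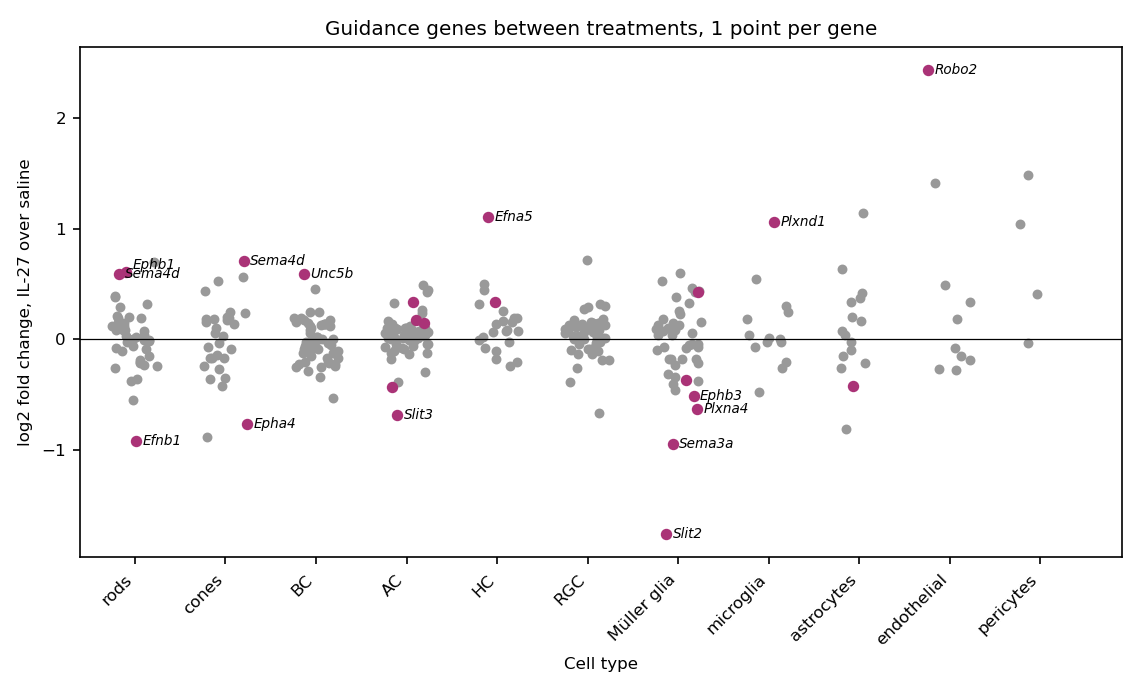
The log2 fold change of IL-27 over saline (vertical axis) for each guidance gene tested in each of 11 cell types, 1 point per gene. Purple points had an unadjusted p below 0.05 and are labelled where the change exceeded 0.5; none passed after adjustment, and Slit2 in Muller glia (-1.77) and Robo2 in endothelial cells (2.43) lay farthest from 0.

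In rods, the cells that degenerate first, 43 members were tested and 3 had an unadjusted p below 0.05 (6.98%, against 3.51% of all rod genes). Efnb1, a ligand of EphB receptors, measured 7.82, 8.52 and 9.3 CPM in the saline libraries and 4.28, 4.66 and 4.56 CPM in the IL-27 libraries. The groups did not overlap and the log2 fold change was -0.92 ± 0.26 (SE; adjusted p = 0.9999, edgeR). Sema4d measured 16.6, 16.8 and 13.6 CPM in the saline libraries and 20.1, 23.7 and 26.9 CPM in the IL-27 libraries, higher in each IL-27 library, with a log2 fold change of 0.59 ± 0.17 (adjusted p = 0.9999, edgeR). The third was Ephb1 at 0.60 ± 0.27. In all, 7 of the 43 members had no overlap between the groups, where 8.53% of rod genes did. Among these was Efna2, at -0.55 ± 0.36 (adjusted p = 0.9999, edgeR). In cones, 2 of 30 members had an unadjusted p below 0.05 (against 3.64%), and 3 had no overlap (against 8.92%). Sema4d was again higher after IL-27, at 20.3, 22 and 11.2 CPM in the saline libraries and 26.4, 32.5 and 29 CPM in the IL-27 libraries (0.71 ± 0.24; adjusted p = 0.999, edgeR). Epha4 was lower, at -0.77 ± 0.32, and Sema5a higher, at 0.56 ± 0.32, neither past the adjusted threshold. Sema4d in rods and cones stood at 6.97% and 8.37% of its microglial level. Ephb1 in rods stood at 2.97% of its Muller level and Epha4 in cones at 2.52% of its astrocyte level. Some markers of other classes reached such shares, whereas Efnb1 in rods stood at 44% of its highest class. Of markers with the same home class, microglial Csf1r was at 0.926% in rods and 0.98% in cones. Astrocyte Pax2 was at 0.0144% in cones and Muller Rlbp1 at 23.7% in rods. Whether free RNA gave the Sema4d, Ephb1 and Epha4 values was not tested.

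In Muller glia the treatment differences of several members were not alike with and without one subset of nuclei. This cluster of 664 of the 5435 nuclei grouped as Muller glia was led by Fbln1, Slc6a13, Fbn2, Col18a1 and the ciliary epithelium marker Optc. It held 7 of the 10 Muller markers and 6 of the 8 ciliary epithelium markers, and Rlbp1, the Muller retinoid-binding protein, was at 37.3 ± 24.8 CPM in it and 335 ± 59 CPM outside it. Its markers thus go in part against the Muller name, so it is called here by its leading gene, and the Muller genes named below from the sum of all nuclei are given with and without it. It made up 20%, 21.9% and 11.3% of Muller nuclei in the saline libraries 1, 2 and 6. In the IL-27 libraries 4, 5 and 10 it made up 1.49%, 0.717% and 12.6%, so that library 10 lay within the saline range. The study named a Muller subpopulation SIIL and reported Fbln1, Frmpd4, Reln and Csmd3 as higher in it. The cluster here was picked out by these 4 genes, all of which passed as markers in it. Whether both hold the same nuclei was not tested. Of 46 members tested in Muller glia, 6 had an unadjusted p below 0.05 (13%, against 9.24% of all Muller genes) and 8 had no overlap between groups (against 14.1%).

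Slit2 measured 218, 288 and 161 CPM in the saline libraries and 54.1, 36 and 105 CPM in the IL-27 libraries in all Muller nuclei, and every IL-27 library was below every saline library. The log2 fold change was -1.77 ± 0.33 (adjusted p = 0.123, edgeR). Without the Fbln1-high nuclei it measured 34.1, 47.6 and 47.6 CPM in the saline libraries and 50.7, 32.6 and 21.8 CPM in the IL-27 libraries, the groups overlapped and the log2 fold change was -0.28 ± 0.25 (adjusted p = 0.975, edgeR). With doublets kept it was -0.56 in all Muller nuclei. In all Muller nuclei Slit2 stood at 5.74% of its BC level and Sema3a at 6.01% of its RGC level, shares that some markers of other classes also reached. The BC marker Grm6 stood there at 2.72% and the RGC marker Slc17a6 at 1.64% of their own levels. Sema3a turned its direction when the cluster was left out. It measured 11.3, 16.7 and 10.5 CPM in the saline libraries and 5.98, 3.37 and 10.7 CPM in the IL-27 libraries with the cluster (-0.95 ± 0.35). Without it the values were 2.56, 2.77 and 2.64 CPM in the saline libraries and 4.89, 3.39 and 5.94 CPM in the IL-27 libraries, with a log2 fold change of 0.81 ± 0.33 and no overlap between the groups (adjusted p = 0.95, edgeR). Ephb3 (-0.52 ± 0.15 with the cluster and -0.32 ± 0.17 without) and Sema3f (-0.37 ± 0.14 and -0.19 ± 0.16) kept their direction at a smaller size. Epha7 went from 0.42 ± 0.15 to 0.40 ± 0.13 and Plxna4 from -0.64 ± 0.23 to -0.61 ± 0.26. With doublets kept Epha7 was at -0.11, and in Muller glia it stood at 5.04% of its BC level and Plxna4 at 3.4% of its HC level. The HC marker Onecut1 stood in Muller glia at 0.193% of its HC level. Sema5b, which had no overlap between groups with the cluster, went from 0.13 ± 0.09 to 0.01 ± 0.10.

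Without the cluster edgeR and DESeq2 each called 0 members, where edgeR called 0.0366% of genes. Then 6 of 45 had an unadjusted p below 0.05 (against 4.92%) and 8 had no overlap (against 10.5%). The strongest was Unc5d, at 12.4, 15.9 and 14.7 CPM in the saline libraries and 20.7, 21.7 and 26.7 CPM in the IL-27 libraries (0.68 ± 0.17; adjusted p = 0.529, edgeR). It stood there at 1.33% of its BC level, a share that markers of other classes also reached. Epha4 was lower without overlap, at -0.36 ± 0.15 (adjusted p = 0.95, edgeR), and stood at 76.4% of its astrocyte level. With the cluster Epha4 was at -0.18 ± 0.19 and the groups overlapped. Dcc was at 0.50 ± 0.17 without the cluster, at 1.01% of its BC level. Of the 42 members tested both with and without the cluster and within it, 11 changed sign. Leaving out IL-27 library 10, the one that held the cluster at a saline level, raised the count of called members in all Muller nuclei from 0 to 6 (Epha5, Ephb1, Sema3a, Sema3e, Sema5a and Slit2), with Slit2 at -2.26 (edgeR adjusted p = 0.000686). Without the cluster, leaving out that library called none. The share of all genes called with library 10 left out is not given, so the 6 are not read as particular to the guidance genes.

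**Figure D3:**
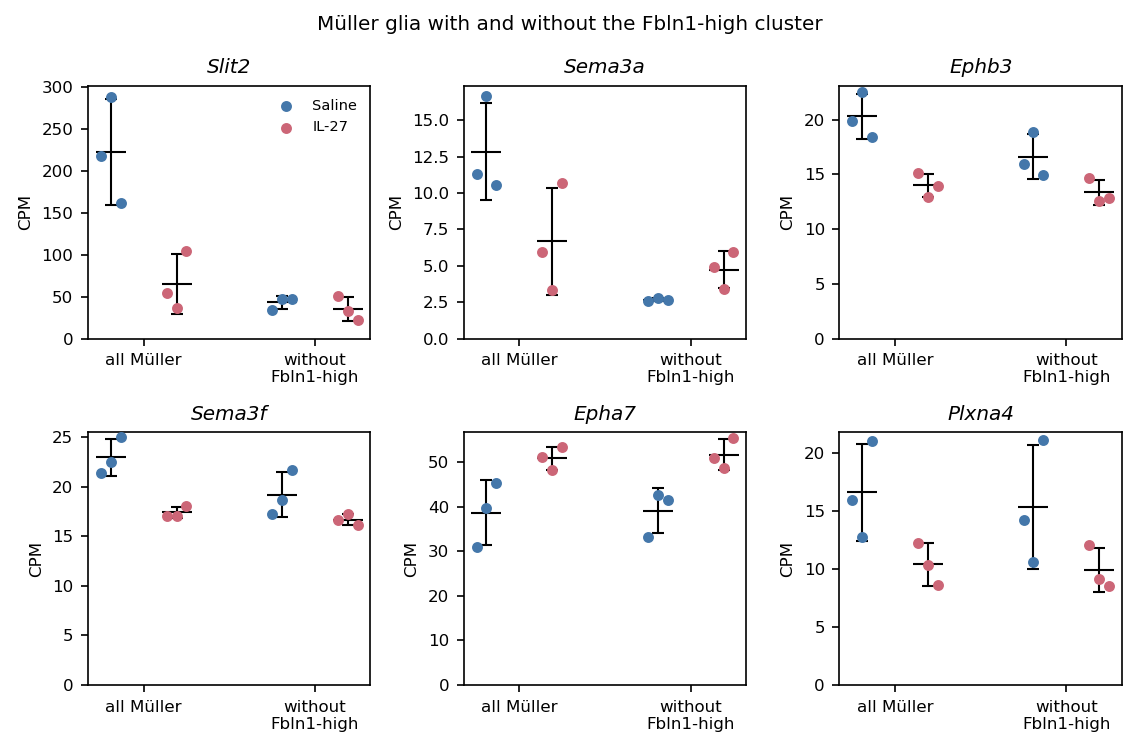
CPM of 6 guidance genes in Muller glia, summed over all Muller nuclei (left pair in each panel) and without the Fbln1-high cluster (right pair). Points are libraries, 3 saline and 3 IL-27, and bars are the mean ± SD; Slit2 averaged 222 CPM in saline and 65 CPM in IL-27 libraries with the cluster, and the groups overlapped without it.

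In the remaining classes the members that stood out at an unadjusted p were few. AC had 5 of 60 (against 2.88%), with 8 not overlapping (against 8.66%). Sema3a in AC was 107, 125 and 98.6 CPM in the saline libraries and 132, 136 and 147 CPM in the IL-27 libraries, higher in each IL-27 library (0.34 ± 0.09; adjusted p = 0.9997, edgeR). Slit3 was -0.69 ± 0.19, Efna2 -0.44 ± 0.15, Plxna2 0.17 ± 0.07 and Unc5d 0.15 ± 0.06, each without overlap, with Slit3 at 7.33% of its pericyte level. HC had 2 of 23 (against 4.96%), with 4 not overlapping (against 9.86%). Efna5 in HC measured 24.4, 21.1 and 25.1 CPM in the saline libraries and 39.9, 77.5 and 31.2 CPM in the IL-27 libraries, and the change was 1.10 ± 0.29 (adjusted p = 0.325, edgeR). Each IL-27 library was above each saline library, and without the highest, library 5, the change was 0.65. Its mean there was 5.65% of its astrocyte level, while the astrocyte marker Pax2 was at 0 CPM in HC. Dcc in HC was 0.34 ± 0.11.

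BC had 1 of 52 (Unc5b at 0.59 ± 0.24 and at 4.13% of its pericyte level, against 2.93% of BC genes) and RGC 0 of 51 (against 3.39%). In microglia 1 of 14 members had an unadjusted p below 0.05 (against 3.04%). This was Plxnd1, at 16.5, 20 and 26.8 CPM in the saline libraries and 16.7, 70.9 and 33.7 CPM in the IL-27 libraries, and the groups overlapped (1.06 ± 0.44; adjusted p = 0.999, edgeR), with a mean at 24.5% of the endothelial level. Sema4d, Plxnb2 and Plxnc1, the members most restricted to microglia, had log2 fold changes of -0.03 ± 0.17, 0.01 ± 0.21 and 0.18 ± 0.21, none past the threshold. Astrocytes had 1 of 16 (Sema6d at -0.43 ± 0.20, against 3.53%), endothelial cells 1 of 10 (Robo2 at 2.43 ± 0.58, adjusted p = 0.997, edgeR, against 3.21%) and pericytes 0 of 4 (against 2.47%). Robo2 in endothelial cells rested on 83 UMIs, with 21.2, 25.5 and 53.9 CPM in the saline libraries and 352, 139.6 and 102 CPM in the IL-27 libraries. It stood at 5.58% of its HC level, where the HC marker Onecut1 stood at 0.32%. Markers of other classes were present in these small sums, with ranges that overlapped between the groups: the 6 rod markers summed to 516 to 764 CPM in saline and 267 to 899 CPM in IL-27 endothelial sums, and the 8 AC markers to 149 to 331 and 133 to 246 CPM. None of these markers was at 0, and their part in the Robo2 value was not tested.

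The Fbln1-high nuclei differed from the other nuclei grouped as Muller in many guidance genes. Both sums were compared within a library, leaving out IL-27 library 5 with 6 such nuclei. Since the cluster was found in the same nuclei, its values are given as a description and its counts support nothing by themselves. Of 45 members tested, 13 were called higher in the cluster (against 21% of all genes) and 16 lower (against 22%), together 64.4% against 43.1%. In 19 of the 45 the 5 sums of the cluster lay all above or all below the 5 sums of other Muller nuclei (42.2%, against 21.8%). The median size of the log2 difference was 1.08 for the members and 0.51 for all genes tested.

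Secreted repellents led the members that were higher. Slit2 measured 1195, 1289 and 1161 CPM in saline and 401 and 842 CPM in IL-27 within the cluster, and 34.1, 47.6 and 47.6 CPM in saline and 50.7 and 21.8 CPM in IL-27 in the other Muller nuclei of the same libraries (log2 fold change 4.53 ± 0.18 SE, or 23.2-fold). A Slit2 UMI was found in 87.8% (exact 95% interval 85 to 90.2) of the cluster's nuclei and in 12.1% (exact 95% interval 11.2 to 13.1) of other Muller nuclei, or 62.6% and 3.32% after thinning. Sema3a measured 57.9, 74.6 and 80.1 CPM in saline and 114 and 52.6 CPM in IL-27 in the cluster and 2.56, 2.77 and 2.64 CPM in saline and 4.89 and 5.94 CPM in IL-27 outside it (4.15 ± 0.25). In every library both genes were higher in the cluster. Its mean Slit2 level, 977 CPM, was near that of AC, and its mean Sema3a level, 75.9 CPM, was below that of AC and RGC. Efna5 (1.05 ± 0.13), Sema6a (1.12 ± 0.13), Sema3f (1.08 ± 0.21) and the receptor Ephb3 (1.12 ± 0.22) were also higher without overlap. Sema3c (2.45 ± 0.54), Epha6 (2.38 ± 0.26), Plxna2 (2.07 ± 0.25), Sema6d (1.76 ± 0.54), Dcc (1.47 ± 0.24), Unc5d (1.05 ± 0.23) and Plxnb2 (0.78 ± 0.17) were higher on average with sums that overlapped. For Sema3c, Epha6, Plxna2, Sema6d and Plxnb2 the overlap came from library 4 alone, at 0 CPM in the cluster. Of the genes that overlapped, all but Plxnb2 stood in the cluster at shares of their highest class that markers of other classes also reached. They are not read as expressed in it. Sema6d averaged 5.96 CPM and Dcc 57.2 CPM there, against 1670 CPM in astrocytes and 2170 CPM in BC.

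Several members that mark Muller glia in the map were lower. Sema5a measured 82.8, 80.9 and 43.9 CPM in saline and 0 and 108 CPM in IL-27 in the cluster and 712, 673 and 659.7 CPM in saline and 719 and 638 CPM in IL-27 outside it (-3.30 ± 0.17). Ntn4 (-3.31 ± 0.20), Epha4 (-3.10 ± 0.18), Epha5 (-1.89 ± 0.13) and Sema5b (-1.58 ± 0.17) followed. So did Robo2 (-2.19 ± 0.14), Sema4a (-2.71 ± 0.36), Sema4g (-2.27 ± 0.42), Epha3 (-1.71 ± 0.28), Sema4d (-1.59 ± 0.19) and Efna1 (-1.38 ± 0.44), all without overlap. Plxnd1 was lower too, with 3 UMIs in the cluster against 309 outside it. Outside the cluster Plxnd1 averaged 16.9 CPM and Efna1 10.4 CPM, against 126 and 53.1 CPM in endothelial cells. Epha3 averaged 32.1 CPM there against 1020 CPM in BC, and Sema4g 15 CPM against 57.4 CPM in AC. Markers of other classes also reached such shares, so Plxnd1, Efna1, Epha3 and Sema4g are not read as expressed in Muller nuclei. Ephb1 (-0.91 ± 0.14), Ephb2 (-0.90 ± 0.16), Sema3e (-0.64 ± 0.13) and Plxnc1 (-0.51 ± 0.16) were lower with overlapping sums. For Ephb1, Ephb2 and Sema3e the overlap came from IL-27 library 4 alone. With DESeq2, Plxnc1 (adjusted p = 0.11), Dcc (0.101) and Efna1 (0.0728) were not called, nor was Plxnc1 without saline library 1 or 6 (edgeR adjusted p = 0.116 and 0.0602). Unc5c, the most abundant netrin receptor of Muller glia, was alike in size in both (-0.14 ± 0.13).

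Markers of the ciliary epithelium, the non-neural rim of the retina, moved with the cluster. The 8 markers measured, none of them at 0, summed to 1610.2 to 1698 CPM in the cluster's saline sums and 286 to 1134 CPM in its IL-27 sums, against 25.8 to 33.6 CPM in the other Muller nuclei. The sum of the 8 AC markers, none at 0, was also higher. It was 1087 to 1845 CPM in the cluster, 783 to 981 CPM in the other Muller nuclei and 2498 to 2738 CPM in AC themselves. Only 3 of the 8 passed as markers in the cluster. The AC gene Gad1 was at 16.8 ± 17.2 CPM in it and 12.9 ± 3.62 CPM in the other Muller nuclei, against 183 CPM in AC. The lowest sums of the 2 lists in the cluster, 286 and 1087 CPM, came from IL-27 library 4 with 12 nuclei. The part of either list in the guidance profile was not tested. Of the wider guidance pathway, 36 genes that are not members were tested (co-receptors, repulsive guidance molecules and intracellular effectors). In the cluster 9 of the 36 were called higher (against 21% of all genes) and 18 lower (against 22%). The semaphorin co-receptors went opposite ways, Nrp2 at 3.39 and Nrp1 at -1.57 on the log2 scale, and the adhesion molecule Nrcam stood at -3.43. Between treatments, 0 of 311 tests of pathway genes over the 11 classes were called by edgeR and 0 by DESeq2. At an unadjusted p below 0.05 stood 19 (6.11%, against 4.13% of all tests).

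**Figure D4:**
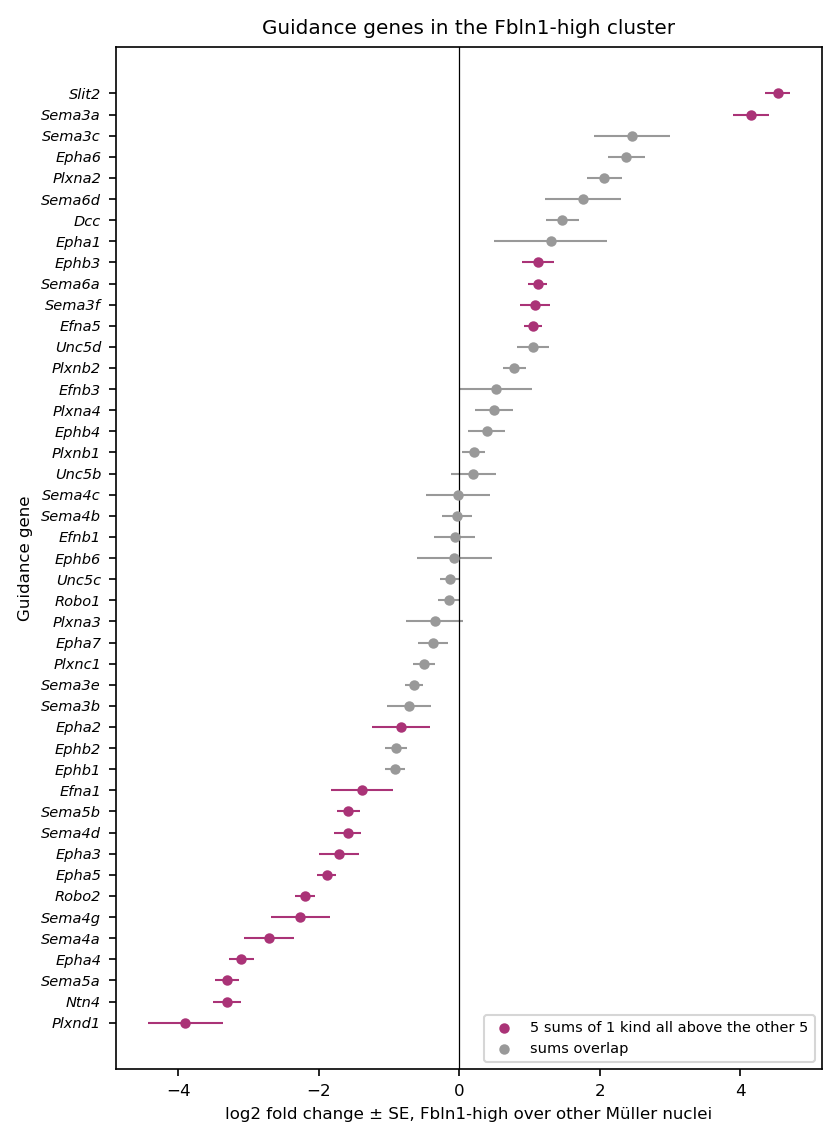
The log2 fold change (± SE) of 45 guidance genes in the Fbln1-high cluster over the other Muller nuclei of the same 5 libraries. Purple genes had 5 sums of one kind all above the other 5; Slit2 (4.53) and Sema3a (4.15) stood at one end and Sema5a (-3.30) and Ntn4 (-3.31) near the other.

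The promoters of the 2 genes with the largest log2 difference are printed to show how unlike they are. Each window, from RefSeq on build GRCm38.p6, runs from 250 bases before to 50 after an annotated start, 5′ to 3′ on the gene's strand (chr5:47982905-47983204, plus strand for Slit2 and chr5:13396534-13396833, plus strand for Sema3a), and CG pairs are in capitals.
Slit2: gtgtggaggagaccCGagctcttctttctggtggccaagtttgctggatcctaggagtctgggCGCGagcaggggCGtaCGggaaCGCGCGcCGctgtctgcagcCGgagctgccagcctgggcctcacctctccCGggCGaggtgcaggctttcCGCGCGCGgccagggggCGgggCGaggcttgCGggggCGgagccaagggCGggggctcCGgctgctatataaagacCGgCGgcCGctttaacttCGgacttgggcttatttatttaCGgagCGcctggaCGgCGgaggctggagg
Sema3a: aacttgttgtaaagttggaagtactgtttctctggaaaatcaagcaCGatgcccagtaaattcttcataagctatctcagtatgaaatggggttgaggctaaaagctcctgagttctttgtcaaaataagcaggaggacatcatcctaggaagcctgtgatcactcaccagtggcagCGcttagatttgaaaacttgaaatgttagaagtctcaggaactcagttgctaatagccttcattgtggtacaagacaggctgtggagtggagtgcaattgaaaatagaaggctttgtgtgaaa
Slit2 held 30 CG pairs and 68% G and C, and Sema3a 2 CG pairs and 41.3%. The median was 19.5 CG pairs and 64.2% over 70 windows of 54 members, and 7 pairs and 52.7% over 32851 windows of all genes.

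Eph receptors are known for gradients over the retina, so Muller nuclei with a UMI of Tbx5, a dorsal transcription factor, were compared with nuclei holding a UMI of the ventral factor Vax2, within each library. There were 231 such dorsal and 500 ventral nuclei, with 30 to 54 dorsal and 57 to 110 ventral nuclei per library. Of 22 members tested, 6 were called by edgeR (27.3%, against 5.78% of all genes): 3 higher in dorsal nuclei (against 2.86%) and 3 lower (against 2.92%). They were 4 Eph receptors, the netrin receptor Unc5c and the ligand Ntn4.

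Ephb1 was higher in dorsal nuclei of 6 of 6 libraries, with 298, 255 and 282 CPM in saline and 314, 382 and 272 CPM in IL-27 libraries in dorsal and 197, 131 and 207 CPM in saline and 283, 269 and 182 CPM in IL-27 libraries in ventral nuclei (log2 fold change 0.55 ± 0.12, adjusted p = 0.00286, edgeR). Epha5 was higher in 6 of 6 by a smaller step (0.30 ± 0.07, adjusted p = 0.0037, edgeR), and Unc5c in 5 of 6 (0.26 ± 0.08, adjusted p = 0.0411, edgeR). Epha4 was lower in dorsal nuclei of 6 of 6 libraries, with 260.3, 239 and 194 CPM in saline and 224, 304 and 130.1 CPM in IL-27 libraries in dorsal and 355, 280.0 and 400.4 CPM in saline and 408, 316 and 222 CPM in IL-27 libraries in ventral nuclei (-0.52 ± 0.13, adjusted p = 0.00705, edgeR). Ntn4 was lower in 6 of 6 (-0.49 ± 0.14, adjusted p = 0.027, edgeR) and Ephb2 in 5 of 6 (-0.53 ± 0.16, adjusted p = 0.036, edgeR). Among all genes tested, 8.96% had the same direction in all 6 libraries. The 2 EphB receptors thus went opposite ways, as did the 2 EphA receptors.

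Without the Fbln1-high nuclei the same 6 genes were called. The calls were less firm under other choices: DESeq2 called Epha5 alone, and defining dorsal and ventral by Tbx5, Tbx3 or Tbx2 against Vax2 or Vax1 called Epha5, Ephb2 and Unc5c and put Epha4 at 0.04. The wider sets held 1916 dorsal and 318 ventral nuclei and may be less dorsal. Tbx2 itself was not called between the Tbx5 and Vax2 nuclei (log2 fold change 0.49 ± 0.19, adjusted p = 0.134, edgeR). Leaving out 1 library left 2 to 5 calls, with Ephb1 and Epha4 among them each time; the lowest count was without saline library 2, and counts of 3 came without IL-27 library 5 or 10. For 5 of the 6 genes the dorsal over ventral ratios of saline and IL-27 libraries overlapped. For Ntn4 the log2 ratios were -0.18, -0.36 and -0.36 in saline and -0.89, -0.89 and -0.65 in IL-27, a difference that 3 against 3 libraries cannot take below an exact permutation p of 0.1.

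**Figure D5:**
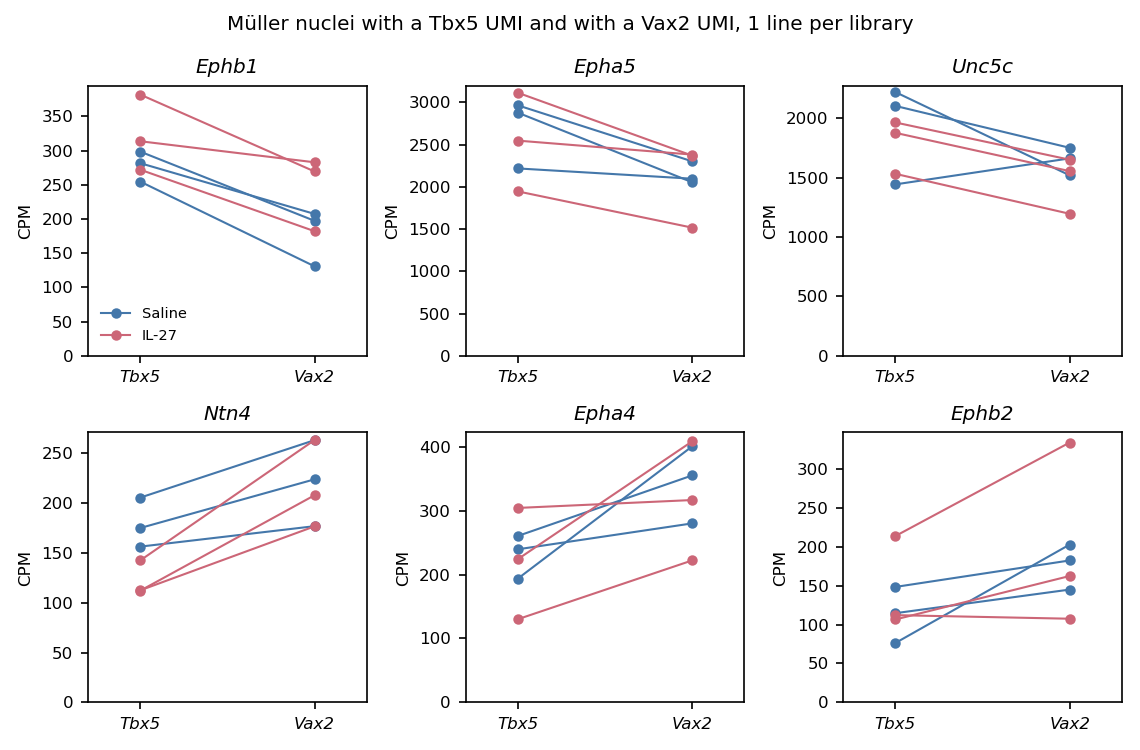
CPM of the 6 guidance genes called between Muller nuclei with a Tbx5 UMI (left) and with a Vax2 UMI (right), 1 line per library, 3 saline and 3 IL-27. Ephb1 and Epha5 fell from left to right in 6 of 6 libraries and Ntn4 and Epha4 rose in 6 of 6.

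The promoter of Epha5 (chr5:84417333-84417632, minus strand, GRCm38.p6) is printed because it was the one among the 6 that held TAATTA, the core bound by many homeodomain factors, which is in capitals.
Epha5: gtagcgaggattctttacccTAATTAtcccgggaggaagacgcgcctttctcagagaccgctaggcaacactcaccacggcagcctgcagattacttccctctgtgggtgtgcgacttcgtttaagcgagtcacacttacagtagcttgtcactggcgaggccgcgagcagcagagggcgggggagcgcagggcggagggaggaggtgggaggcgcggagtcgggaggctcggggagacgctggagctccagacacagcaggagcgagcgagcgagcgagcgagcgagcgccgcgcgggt
TAATTA stood in 5.29% of all windows and 4.29% of member windows. The T-box letters GGTGTGA were in none of the 6 windows, in 4.29% of member windows and in 3.98% of all windows, both strands counted. These are matches of letters in a short window and are not evidence of binding.

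Of the guidance genes, 16 had fewer than 60 UMIs in the class of their highest mean, so that their order over classes is uncertain. Besides those described above (Efna1, Efnb1, Ntn1, Plxna3, Sema3g, Sema4b, Sema7a and Unc5b), they were Efna2 and Epha1 with at most 4 UMIs in pericytes, Epha2 and Slit3 with 14 and 18 in pericytes, Robo3 and Sema6b with 4 and 9 in endothelial cells, Efna4 with 5 in astrocytes, and Plxnb3 with 6 in microglia. In larger classes Slit3, the third Slit, measured 29.1 ± 6.2 CPM in BC and Sema6b 13.4 ± 2.55 CPM in RGC. Sema3b, which passed with 393 UMIs in Muller glia, measured 15.7 ± 3.1 CPM there. The 5 genes that matched by letters alone were counted in the same way. Unc50 was spread over the classes, from 15.7 ± 3.01 CPM in HC to 37.7 ± 13.8 CPM in endothelial cells. Plxna4os3 was highest in HC at 39 ± 13.1 CPM, the class that was also highest for Plxna4, and Plxna4os2 at 9.78 ± 2.61 CPM. Plxna4os1 was highest in microglia at 16.7 ± 5.97 CPM, and Unc5cl was hardly found, with 28 UMIs in the 11 classes.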

How the data were processed

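The deposited files hold UMI counts per gene and barcode for 6 libraries. Per the submitters' processing notes the authors used Cell Ranger 9.0.1 and Seurat 5.2.1, and the genome build is not given in the sources used here. A barcode was kept if it had under 5% mitochondrial UMIs, 200 or more genes and over 500 UMIs, the 620 to 725 per library with the highest scrublet scores were left out as doublets (an assumed rate of 8%, less those of 1 cluster), and nuclei were clustered (scanpy 1.11.5, Louvain, resolution 0.25) without the members. Nuclei whose log2 UMIs lay beyond 2 median absolute deviations of the median over all nuclei were not summed. Counts were summed per library and class and tested with edgeR 4.0.16 (quasi-likelihood, TMM, filterByExpr minimum 10) over all genes, with Benjamini-Hochberg adjustment at 0.05. Within-library comparisons had the library as a block. DESeq2 1.42.0, other scalings, filters, clusterings and each library left out were alternatives. The script was tested on simulated data.

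The members, gene lists and tests were chosen with earlier results of these data known. Genes named by rule were those called, up to 3 per class with the largest share there, up to 2 per direction without overlap in rods, cones, Muller glia and microglia, and a list of retinal guidance genes; others were chosen after their values were seen. One gene covered by the letters is not reported here. Promoters of 54 of the 64 genes were matched by symbol in RefSeq (GRCm38.p6).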

Additional observations from a re-analysis of the deposited data

Results flagged for a closer look

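Between classes, 2 guidance genes went opposite ways after IL-27 in every library, of 60 tested in 2 or more classes (3.33%, against 4.44% of 16295 genes of any kind). Epha7 was higher in each IL-27 library in Muller glia (log2 fold change 0.42, unadjusted p = 0.016, edgeR) and lower in each in AC (-0.13, unadjusted p = 0.114, edgeR). With doublets kept its value in Muller glia was -0.11. Plxna4 was lower in each IL-27 library in Muller glia (-0.64, unadjusted p = 0.0225, edgeR), and higher in each in BC (0.15, unadjusted p = 0.0789, edgeR) and in endothelial cells (0.49, unadjusted p = 0.115, edgeR). The difference between the classes was not tested, and none of these values passed the adjusted threshold.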

How the results depend on the processing

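Without a filter on low counts edgeR called 1 member in BC (Unc5c), 1 in HC (Efna5), 1 in Muller glia (Slit2), 4 in endothelial cells (Dcc, Efna5, Robo2 and Slit2) and 2 in pericytes (Efna5 and Sema3c), in place of 0. DESeq2 called 1 in Muller glia (Slit2). Leaving out 1 library gave 0 to 6 calls in Muller glia, the 6 without IL-27 library 10, and 0 in each other class. The shares of all genes called under these choices are not given, so the counts are not read as particular to the guidance genes. Between dorsal and ventral nuclei, 6 calls became 1 with DESeq2, 3 with wider marker genes and 2 to 5 with a library left out. DESeq2's scaling put the median of all genes at 0.13 there and at 0.39 in the Fbln1-high comparison, in which 27 to 30 members were called in place of 29. The log2 fold changes that reversed were Epha7 in Muller glia with doublets kept (-0.11), Sema3a in Muller glia without the Fbln1-high cluster (0.81) and Epha4 in dorsal nuclei with wider markers (0.0418). The cause was not tested. The class in which a gene was highest held for 48 of 48 genes with the Fbln1-high cluster left out of Muller glia, a choice made after seeing the data, 47 with all nuclei summed, 46 at resolution 0.5, 44 in saline or in IL-27 libraries alone, 41 with doublets kept, where the endothelial nuclei formed a cluster mixed with rod markers and pericytes none, so that neither class had a value, and 38 after thinning. No paired analysis was possible because the groups share no replicate number. Depth limits pericytes, endothelial cells, microglia and astrocytes most, in which 4, 10, 14 and 16 members could be tested.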
